A study of Mus musculus with 9 samples.

Results

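Border-associated macrophages live outside the brain tissue proper, in the meninges, the choroid plexus and the spaces around vessels, and 8 genes commonly used to mark them are described here: Mrc1, Cd163, Lyve1, Siglec1, Ms4a7, Pf4, F13a1 and Cbr2. The genes were chosen by symbol and matched by Ensembl identifier to a table of raw RNA-seq read counts that lists 53801 genes. All 8 were found, and all 8 were among the 12538 protein-coding genes that passed a filter on low counts and were tested.

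The study asked how an oral arginase inhibitor, OAT-1746, and an antibody against PD-1 act alone and together in mice carrying the glioma line GL261. Male C57BL/6J mice aged 10 to 12 weeks were implanted with GL261 luc+ tdT+ cells (GL261 tdTomato+luc+ in the paper), a mouse glioma line carrying luciferase and tdTomato. All 4 groups share this background. Polyadenylated RNA was sequenced from CD11b+ cells that had been FACS sorted out of dissociated tumor-bearing hemispheres. The CD11b gate takes microglia, monocytes, macrophages, neutrophils, NK cells and some dendritic cells together, so the libraries are mixtures, and the methods call the libraries of a group biological replicates. CTR mice (2 libraries) received saline by gavage 2 times a day. OAT-1746 mice (2 libraries) received the inhibitor by gavage at 50 mg/kg 2 times a day, starting on day 1. In the anti-PD-1 group (2 libraries) mice received 2.5 mg/kg of antibody into the peritoneum on days 8, 10, 12 and 14, and COMB mice (3 libraries) received both agents. One of the antibody libraries (replicate 2 of the anti-PD-1 group) carries PD-2 in place of PD-1 in its treatment field, and it was grouped by its title. The methods place cell collection on day 28 and a legend places it on day 21.

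The libraries held between 13048075 and 18796479 counted read pairs. CTR replicates 1 and 2 held 17490386 and 17729568, OAT-1746 replicates 1 and 2 held 17380045 and 16784406, anti-PD-1 replicates 1 and 2 held 14356928 and 18796479, and COMB replicates 1 to 3 held 13048075, 16144518 and 14806017. OAT-1746 replicate 2 stood apart from the other libraries. Levels are in CPM, the count of a gene scaled to the depth of its library. The highest correlation of log2 CPM over the tested genes between OAT-1746 replicate 2 and another library was 0.956, whereas that of every other library was at least 0.976. Replicates of 1 group differed beyond counting error in every group, with a chi-square per gene of 8.13 for COMB replicates 2 and 3 and 94.3 for the OAT-1746 pair. With 2 libraries in that group, the main results on OAT-1746 are given with and without replicate 2.

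Border-associated macrophages arise early in development, largely persist without replacement from blood at steady state, and take up material from cerebrospinal fluid and blood vessels through scavenger receptors. In mouse brain they share CD11b with microglia and with monocytes that enter from blood, and in a tumor the incoming monocytes can turn on several of the same genes. None of the 8 genes is therefore restricted to these cells: Mrc1, Cd163 and Lyve1 are the receptors most often used to tell them from microglia, whereas Ms4a7, F13a1 and Siglec1 are also made by monocyte-derived macrophages, Pf4 by platelets and Lyve1 by lymphatic endothelium.

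The 8 genes lie on 7 chromosomes, with Mrc1 and Siglec1 both on chromosome 2, and their union exon length in the GENCODE annotation runs from 721 bases (Pf4) to 7143 bases (Siglec1). Mrc1 (ENSMUSG00000026712) lies at chr2:14229392-14332057 on the plus strand and holds 1 other gene on the same strand, a microRNA, whereas F13a1 (ENSMUSG00000039109) lies at chr13:36867178-37050244 on the minus strand and overlaps 2 antisense genes. The RefSeq promoter table (GRCm38.p6) held windows of 300 bases for 6 of the 8 genes, Mrc1, Cd163, Pf4, F13a1, Cbr2 and Ms4a7. Lyve1 and Siglec1 had no entry. Mrc1, Cd163, F13a1 and Ms4a7 are shown because they make up the 3 pairs of genes whose correlation over libraries passed a test, read 5′ to 3′ on the strand of the gene at the annotated start. Their windows are chr2:14229164-14229463 (plus strand) for Mrc1, chr6:124304401-124304700 (plus strand) for Cd163, chr13:37050195-37050494 (minus strand) for F13a1 and chr19:11336097-11336396 (minus strand) for Ms4a7. Capitals mark a match on either strand to 1 of 5 motifs.
Mrc1: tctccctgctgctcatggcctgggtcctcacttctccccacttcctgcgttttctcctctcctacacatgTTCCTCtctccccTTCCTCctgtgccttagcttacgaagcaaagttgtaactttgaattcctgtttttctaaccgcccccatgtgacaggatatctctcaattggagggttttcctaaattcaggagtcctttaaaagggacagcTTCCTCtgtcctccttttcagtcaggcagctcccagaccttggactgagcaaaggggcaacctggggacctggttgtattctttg
Cd163: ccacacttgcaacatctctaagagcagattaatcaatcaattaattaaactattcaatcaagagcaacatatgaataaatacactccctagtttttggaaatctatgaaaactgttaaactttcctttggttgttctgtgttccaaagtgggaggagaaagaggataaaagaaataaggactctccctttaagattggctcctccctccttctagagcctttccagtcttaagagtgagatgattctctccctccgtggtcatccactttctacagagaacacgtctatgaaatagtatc
F13a1: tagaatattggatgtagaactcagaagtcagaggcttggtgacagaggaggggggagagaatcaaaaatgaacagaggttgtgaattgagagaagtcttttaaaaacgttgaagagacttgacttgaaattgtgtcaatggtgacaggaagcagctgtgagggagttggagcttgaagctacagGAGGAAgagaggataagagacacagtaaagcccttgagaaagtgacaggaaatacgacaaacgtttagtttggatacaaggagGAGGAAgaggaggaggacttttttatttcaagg
Ms4a7: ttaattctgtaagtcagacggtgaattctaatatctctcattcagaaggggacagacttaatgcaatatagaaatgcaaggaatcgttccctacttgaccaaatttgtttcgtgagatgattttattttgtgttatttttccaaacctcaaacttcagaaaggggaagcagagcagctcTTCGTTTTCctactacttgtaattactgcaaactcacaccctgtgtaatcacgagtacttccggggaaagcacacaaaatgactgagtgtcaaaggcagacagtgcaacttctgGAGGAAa

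The motifs searched were GAGGAA (the core bound by PU.1, a factor needed by all macrophages), TGCTGA (bound by MAF proteins), AGATAA (bound by GATA factors), GAAANNGAA (the core of interferon response elements) and TGANTCA (AP-1). Among the 32851 promoter windows of the table, 28.3% hold GAGGAA, 19.5% TGCTGA, 11.2% AGATAA, 8.56% GAAANNGAA and 7.81% TGANTCA. Counted from base 1 of the window, the Mrc1 window holds GAGGAA as its reverse complement TTCCTC at bases 71, 84 and 216. The F13a1 window holds GAGGAA as written at bases 185 and 268. The Ms4a7 window holds GAGGAA as written at base 294 and the reverse complement of GAAANNGAA (TTCGTTTTC) at base 180, and none of the 5 motifs is in the Cd163 window. Of the other windows, that of Pf4 holds GAGGAA and AGATAA, and that of Cbr2 holds GAGGAA and TGCTGA. The table also has a second window, away from the annotated start, for F13a1, with GAGGAA at base 265, and for Ms4a7, with GAAANNGAA at base 103 and TGANTCA at base 170. These matches describe the letters of the windows and are not evidence of binding.

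The sort was checked on Itgam (which encodes CD11b), Ptprc (CD45), Csf1r, Aif1 and Cd68, all of which were present in every library, with Itgam between 294 and 446 CPM. Csf1r, the growth factor receptor that macrophages and microglia depend on, was the most abundant of these 5 in all 9 libraries. By edgeR, 2 of the 5 were higher and 1 lower in OAT-1746 than in CTR at an unadjusted p under 0.05 (beside 32.3% of all genes). Aif1 was higher in COMB than in OAT-1746 at an edgeR adjusted p under 0.05 (beside 15.8% of all genes). Its log2 difference was 0.57 without OAT-1746 replicate 2, where the call did not hold. Of 20 further genes of border-associated macrophages 18 were tested, and Cd209g and Vsig4 stayed under the filter. The summed level of the 20 genes lay between 1113 CPM (anti-PD-1 replicate 1) and 1512 CPM (COMB replicate 3), and Stab1, a scavenger receptor, was the most abundant in each library. The 8 genes summed to 1031 and 1191 CPM in CTR, 865 and 666 in OAT-1746, 888 and 1044 in anti-PD-1, and 820, 919 and 967 in COMB. The 12 genes of homeostatic microglia summed to between 14967 and 39751 CPM. The markers were thus present. The 8 genes did not vary as a single group over the libraries, so they are called the 8 genes rather than a measure of a cell type.

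Levels can be set beside each other only per length of transcript. In CPM per kilobase of exon, averaged over the 9 libraries, the order was Ms4a7 at 43.8 ± 21.4 (SD, n = 9), Mrc1 at 36.4 ± 8.42, F13a1 at 34.5 ± 7.83, Pf4 at 27.7 ± 5.94, Siglec1 at 27.6 ± 12.6, Cbr2 at 14.4 ± 4.16, Cd163 at 5.20 ± 1.68 and Lyve1 at 3.01 ± 1.18. Each of the first 5 genes differed from its neighbours among those 5 by less than the larger SD of the pair. Cbr2 was below Pf4 and Siglec1 and above Cd163 by more than its own SD, and Lyve1 was the lowest. The order of the first 5 was not the same in each group: in CTR Ms4a7 was highest at 68.6 ± 0.237 CPM per kilobase (SD, n = 2), and in OAT-1746 Mrc1 was highest at 48.2 ± 10.4 (SD, n = 2) and Ms4a7 stood at 25.8 and 7.36 CPM per kilobase in the 2 libraries. In counts, the least covered gene was Lyve1, with 68 to 256 read pairs per library, and the best covered was Mrc1, with 2752 to 6191.

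**Figure D1:**
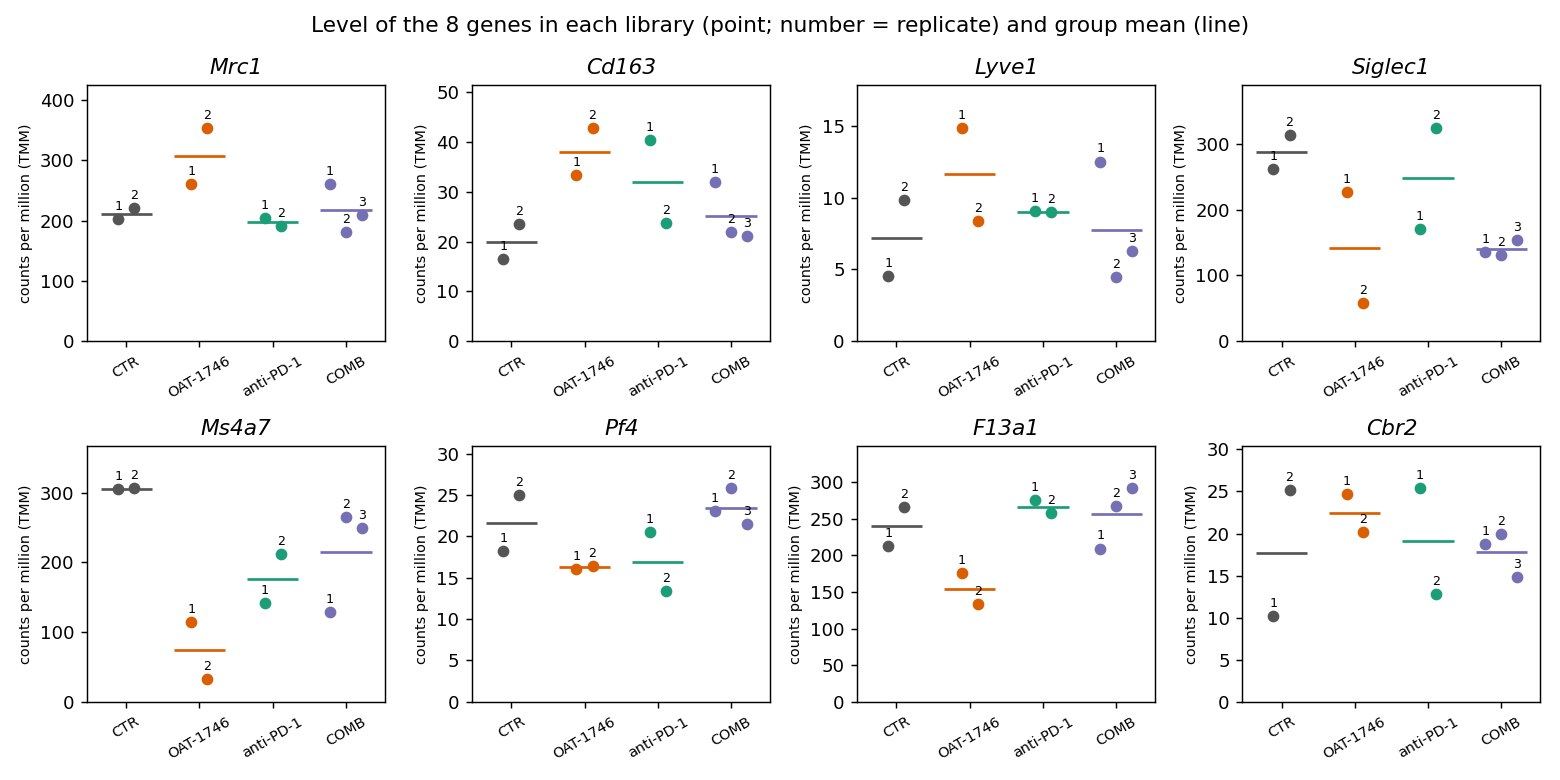
Level of each of the 8 genes in CPM (vertical axis, from 0) in each of the 9 libraries, by group, with the group mean as a bar. Ms4a7 lies near 305 CPM in both CTR libraries and lower in all 7 treated libraries, and Mrc1 is highest in OAT-1746 replicate 2 at 354 CPM.

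Mrc1 encodes the mannose receptor CD206, which takes up glycoproteins and sugars of microbes. Its level was 202 and 221 CPM in CTR, 260 and 354 in OAT-1746, 205 and 191 in anti-PD-1, and 261, 182 and 210 in COMB. Both OAT-1746 libraries were above both CTR libraries, while anti-PD-1 and COMB overlapped CTR. COMB replicate 1 reached the level of OAT-1746 replicate 1, and the other 2 COMB libraries were lower. The difference of OAT-1746 from CTR was 0.54 in log2 (SE 0.215), and it did not pass the edgeR quasi-likelihood test with Benjamini-Hochberg adjustment over all genes (adjusted p = 0.126). Without OAT-1746 replicate 2 it was 0.31, and without replicate 1 it was 0.74 with an edgeR adjusted p of 0.0332. In these bulk data fewer cells of a kind and less RNA per cell cannot be told apart, for this gene and for the others.

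Cd163 encodes the receptor that clears haemoglobin bound to haptoglobin. It stood at 16.5 and 23.5 CPM in CTR, 33.3 and 42.9 in OAT-1746, 40.4 and 23.7 in anti-PD-1, and 32.0, 22.0 and 21.2 in COMB. The OAT-1746 libraries were above those of CTR and COMB, and anti-PD-1 was above CTR by a narrow margin in replicate 2. OAT-1746 minus CTR was 0.93 in log2 (SE 0.312, edgeR adjusted p = 0.0919), with both libraries higher. This passed the threshold in DESeq2 (adjusted p = 0.0498) and in edgeR without OAT-1746 replicate 1 (1.10, adjusted p = 0.0419), and without replicate 2 it was 0.75 (adjusted p = 0.372). Anti-PD-1 minus CTR was 0.68 (SE 0.312, edgeR adjusted p = 0.951), and it was 0.25 without anti-PD-1 replicate 1 and 0.45 without CTR replicate 1.

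Lyve1 encodes a hyaluronan receptor, and it was the lowest of the 8 genes per kilobase. Its level was 4.57 and 9.82 CPM in CTR, 14.9 and 8.41 in OAT-1746, 9.06 and 9.02 in anti-PD-1, and 12.5, 4.49 and 6.31 in COMB. The groups overlapped in every comparison, and the CTR replicates differed from each other by more than the group means did. Its log2 difference from CTR was 0.69 (SE 0.504) in OAT-1746, 0.33 (SE 0.507) in anti-PD-1 and 0.11 (SE 0.468) in COMB, and the sign was negative in anti-PD-1 without CTR replicate 1 (-0.12) and in COMB without CTR replicate 1 (-0.31) or COMB replicate 1 (-0.44). The value in OAT-1746 was 1.06 without OAT-1746 replicate 2 and 0.22 without replicate 1, and it was 0.26 and 1.34 without CTR replicate 1 or 2.

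Siglec1 encodes sialoadhesin (CD169), which binds sialic acid on cells and particles and is known to be induced by type I interferon. It stood at 262 and 314 CPM in CTR, 226 and 57.3 in OAT-1746, 171 and 324 in anti-PD-1, and 135, 132 and 153 in COMB. OAT-1746 and COMB lay below CTR in every library, and the COMB libraries lay close together, whereas the OAT-1746 pair differed by a wide margin and anti-PD-1 overlapped CTR. COMB minus CTR was -1.04 in log2 (SE 0.468, edgeR adjusted p = 0.752), and OAT-1746 minus CTR was -1.02 (SE 0.524, adjusted p = 0.205). The OAT-1746 value was -0.34 without replicate 2 and -2.33 without replicate 1 (edgeR adjusted p = 0.00360). COMB minus OAT-1746 was -0.02 and turned with the replicate left out: it was -0.68 without OAT-1746 replicate 2, 1.29 without replicate 1 (edgeR adjusted p = 0.0178) and 0.02 without COMB replicate 2. Anti-PD-1 minus CTR was -0.22, and it was 0.18 without anti-PD-1 replicate 1.

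Ms4a7 encodes a protein of the MS4A family that spans the membrane 4 times and marks macrophages other than microglia. It stood at 305 and 306 CPM in CTR, 115 and 32.8 in OAT-1746, 141 and 212 in anti-PD-1, and 129, 265 and 249 in COMB. All 7 treated libraries lay below both CTR libraries, with OAT-1746 lowest and COMB replicate 1 near OAT-1746 replicate 1. From the lowest library to the highest it ranged 9.33-fold, the widest of the 8 genes, and without OAT-1746 replicate 2 the range was 2.67-fold, below that of Lyve1 at 3.32-fold. OAT-1746 minus CTR was -2.05 in log2 (SE 0.539, edgeR adjusted p = 0.0700), and it was lower in 2 of 2 libraries. The value was -1.40 without OAT-1746 replicate 2 (edgeR adjusted p = 0.276) and -3.22 without replicate 1 (adjusted p = 0.00259). With no filter on low counts it was -2.04 with an edgeR adjusted p of 0.0415, and DESeq2 gave an adjusted p of 0.00250. Anti-PD-1 minus CTR was -0.79 (SE 0.521) and COMB minus CTR was -0.51 (SE 0.468), and neither passed in edgeR (adjusted p = 0.967 and 0.830). The first was -0.52 without anti-PD-1 replicate 1 and the second -0.27 without COMB replicate 1.

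Pf4 encodes the chemokine CXCL4, best known from platelet granules and also made by these macrophages. It stood at 18.2 and 25.1 CPM in CTR, 16.1 and 16.4 in OAT-1746, 20.6 and 13.4 in anti-PD-1, and 23.1, 25.8 and 21.5 in COMB. The OAT-1746 libraries were lower than those of CTR and COMB, and Pf4 ranged 1.93-fold over the libraries, with or without OAT-1746 replicate 2. OAT-1746 minus CTR was -0.41 in log2 (SE 0.236, edgeR adjusted p = 0.245), and it was -0.42 without OAT-1746 replicate 2 and -0.17 without CTR replicate 2. Of 10 genes of platelets and megakaryocytes 3 passed the filter (Gp9, Itga2b and Clec1b), and Gp1ba had no count in any library. The 10 platelet genes summed to between 5.47 CPM (CTR replicate 1) and 16.6 CPM (OAT-1746 replicate 1). Gp9 made up most of the sum, at 4.20 CPM in the first of these libraries and 15.0 CPM in the second. The part of platelets in the values of Pf4 was not tested.

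F13a1 encodes the A chain of coagulation factor XIII, a transglutaminase that cross-links fibrin. It stood at 213 and 266 CPM in CTR, 175 and 134 in OAT-1746, 275 and 258 in anti-PD-1, and 209, 268 and 292 in COMB. The OAT-1746 libraries were the lowest of all, below every library of the other groups, and those groups overlapped one another. OAT-1746 minus CTR was -0.63 in log2 (SE 0.216, edgeR adjusted p = 0.0943, DESeq2 adjusted p = 0.0486). The edgeR value was -0.44 without OAT-1746 replicate 2 (adjusted p = 0.396) and -0.85 without replicate 1 (adjusted p = 0.0302). Anti-PD-1 minus CTR was 0.15 and COMB minus CTR was 0.10, and both came to about 0 or just below without CTR replicate 1 (-3.5e-06 and -0.03).

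Cbr2 encodes a carbonyl reductase that uses NADPH. It stood at 10.2 and 25.1 CPM in CTR, 24.7 and 20.1 in OAT-1746, 25.4 and 12.8 in anti-PD-1, and 18.8, 19.9 and 14.9 in COMB. The CTR libraries differed from each other more than any group differed from CTR, and every treated group lay between them or overlapped them. OAT-1746 minus CTR was 0.34 in log2 (SE 0.416), which became -0.15 and 1.12 without CTR replicate 1 or 2, and 0.19 and 0.49 without OAT-1746 replicate 1 or 2. The difference in anti-PD-1 was 0.11 and turned to -0.39 without CTR replicate 1 and -0.45 without anti-PD-1 replicate 1, and in COMB it was 0.02 and turned to -0.47, -0.04 and -0.07 without CTR replicate 1, COMB replicate 1 or COMB replicate 2.

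**Figure D2:**
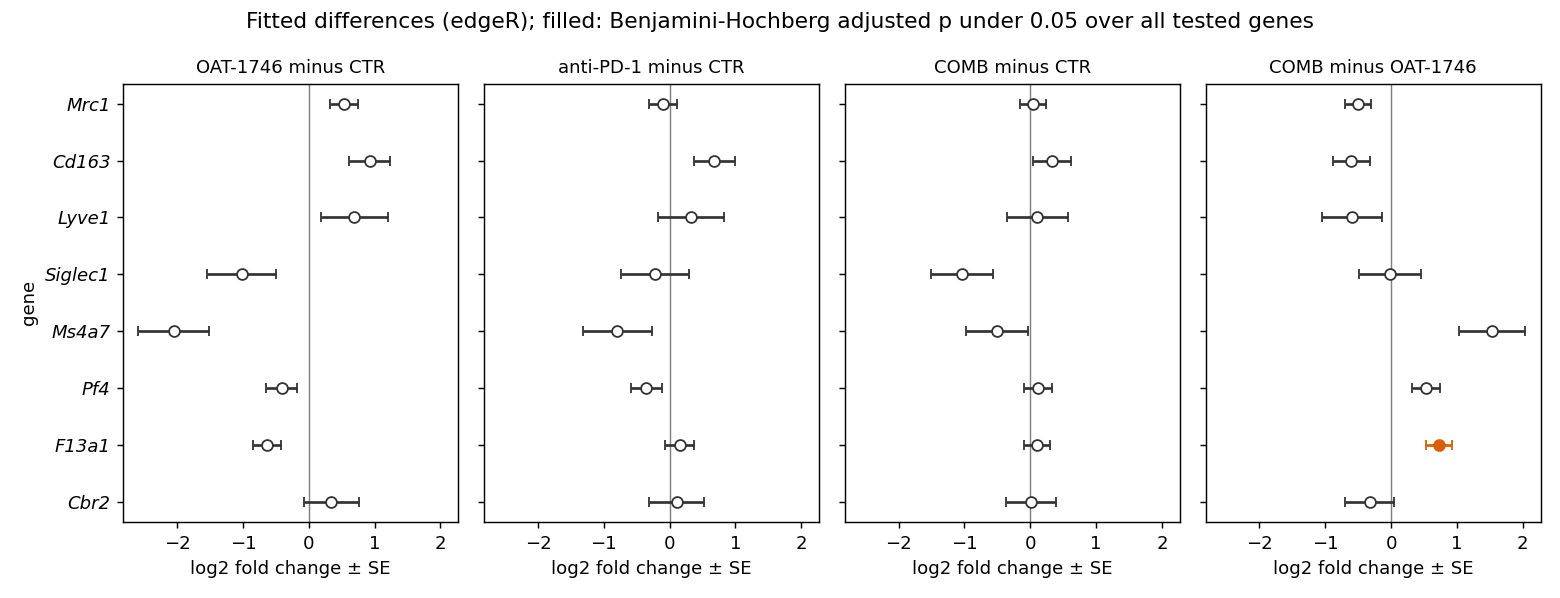
Log2 fold change of each of the 8 genes (horizontal axis) with its SE from edgeR, in the comparisons of OAT-1746, anti-PD-1 and COMB with CTR and of COMB with OAT-1746. Ms4a7 has the lowest value in OAT-1746 minus CTR at -2.05, and F13a1 in COMB minus OAT-1746 at 0.73 is the value that passed an adjusted p of 0.05.

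With OAT-1746 alone Mrc1, Cd163, Lyve1 and Cbr2 were higher than in CTR and Ms4a7, Siglec1, F13a1 and Pf4 were lower, so the 8 genes split 4 to 4, which is a split seen in the values and not chosen beforehand. By edgeR at an adjusted p under 0.05, 0 of the 8 genes and 0 of all 12538 (0%) passed in OAT-1746 minus CTR. At an unadjusted p under 0.05, 4 of the 8 passed, Mrc1 and Cd163 higher and F13a1 and Ms4a7 lower, beside 4049 (32.3%) of all genes, and DESeq2 called 3 of the 8 (Cd163, F13a1 and Ms4a7) and 1972 genes in all. The libraries of the groups did not overlap for 6 of the 8 genes, beside 62.9% of all genes. The median log2 difference over the 8 genes was -0.04, and over all genes it was 0.01. The count at an unadjusted p was 1 of the 8 (Ms4a7) and 14.6% of all genes without OAT-1746 replicate 2, 2 of the 8 and 17.4% without CTR replicate 1, 3 of the 8 and 24.8% without CTR replicate 2, and 3 of the 8 and 27.2% without COMB replicate 3. Without OAT-1746 replicate 1 edgeR called 3617 genes at an adjusted p under 0.05, among them Mrc1, Cd163, F13a1, Ms4a7 and Siglec1, and without COMB replicate 1 it called 278 and none of the 8 (4 of the 8 and 33.0% of all genes at an unadjusted p). In the fits without OAT-1746 replicate 1 or 2, the single OAT-1746 library left is assumed to vary like the other groups.

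With anti-PD-1 alone Cd163 was higher than in CTR and Ms4a7 lower in both libraries, and the other 6 genes overlapped CTR. In edgeR 0 of the 8 genes and 0 of all genes (0%) passed at an adjusted p under 0.05, and DESeq2 called 14 genes and none of the 8. At an unadjusted p under 0.05 edgeR found 0 of the 8 beside 642 (5.12%) of all genes. The count of 2 genes that did not overlap stands beside 37.6% of all genes. The median log2 difference of the 8 genes was 0.01, and that of all genes was 0.02. The unadjusted count became 1 of the 8 without CTR replicate 2 (Cd163, beside 3.81% of all genes), without OAT-1746 replicate 2 (Ms4a7, beside 7.56%), without anti-PD-1 replicate 1 (Pf4, beside 2.59%) and without anti-PD-1 replicate 2 (Cd163, beside 6.17%), and 2 without OAT-1746 replicate 1 (Cd163 and Ms4a7, beside 7.43%).

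With both agents Ms4a7 and Siglec1 were below CTR in all 3 COMB libraries, and the other 6 genes overlapped CTR. In edgeR 0 of the 8 and 0 of all genes (0%) passed at an adjusted p under 0.05, while DESeq2 called 35 genes and none of the 8. At an unadjusted p the edgeR count was 0 of the 8 beside 825 (6.58%) of all genes, and it was 1 of the 8 (Siglec1) without OAT-1746 replicate 1, OAT-1746 replicate 2 or anti-PD-1 replicate 2, beside 1156 of 12847, 1135 of 12837 (8.84%) and 877 of 12918 (6.79%) of all genes. The 2 genes that did not overlap stand beside 27.9% of all genes. The median over the 8 genes was 0.07, and over all genes it was -0.00. The 3 comparisons with CTR use the same 2 CTR libraries, so their values stand side by side and are not independent. For Ms4a7 they were -2.05, -0.79 and -0.51 in OAT-1746, anti-PD-1 and COMB, for Siglec1 -1.02, -0.22 and -1.04, and for Cd163 0.93, 0.68 and 0.33, the last of which was 0.09 without COMB replicate 1, 0.12 without CTR replicate 1 and 0.60 without CTR replicate 2.

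COMB against OAT-1746 asks what the antibody adds to the inhibitor, and here F13a1 rose. Its log2 difference was 0.73 (SE 0.200, edgeR adjusted p = 0.0426), and all 3 COMB libraries were above both OAT-1746 libraries. It was the 1 gene of the 8 that passed, beside 1979 (15.8%) of all genes, of which 858 were higher and 1121 lower. Ms4a7 was higher in every COMB library at 1.54 (edgeR adjusted p = 0.0636, DESeq2 adjusted p = 0.00698), and Pf4 was higher at 0.53 (SE 0.218, edgeR adjusted p = 0.112). Cd163 (-0.60) and Cbr2 (-0.33) were lower in every COMB library, Mrc1 (-0.50) and Lyve1 (-0.59) were lower on average with an overlap, and the 5 genes that did not overlap stand beside 54.0% of all genes. At an unadjusted p under 0.05 there were 4 of the 8 (Mrc1 lower and Pf4, F13a1 and Ms4a7 higher) beside 37.1% of all genes. The median was -0.17 over the 8 genes and 0.00 over all genes. Apart from F13a1 the values without OAT-1746 replicate 2 were 0.91 for Ms4a7, 0.56 for Pf4, -0.39 for Cd163, -0.45 for Cbr2, -0.24 for Mrc1 and -0.93 for Lyve1. That of Ms4a7 was 2.71 and that of Cbr2 -0.17 without OAT-1746 replicate 1, that of Cbr2 was -0.21 without COMB replicate 3, and that of Lyve1 was -0.12, -1.14 and -0.31 without OAT-1746 replicate 1, COMB replicate 1 or COMB replicate 2. The call for F13a1 in COMB minus OAT-1746 depended on single libraries. Its edgeR adjusted p was 0.224 without OAT-1746 replicate 2 (log2 0.56), 0.136 without COMB replicate 2 (0.70) and 0.144 without COMB replicate 3 (0.63). It was 0.0581 and 0.0608 without CTR replicate 1 or 2, and 0.0618 and 0.0617 without anti-PD-1 replicate 1 or 2, although those libraries are not in the comparison. It was 0.0153 without OAT-1746 replicate 1 (log2 0.94) and 0.0245 without COMB replicate 1 (0.82). The number of all genes called moved with it, to 27 without OAT-1746 replicate 2, 14 without COMB replicate 2 and 5 without COMB replicate 3. It was 734 and 808 without CTR replicate 1 or 2, 861 and 927 without anti-PD-1 replicate 1 or 2, 2923 without COMB replicate 1 and 4033 without OAT-1746 replicate 1. Of the 8 genes, 4 passed without OAT-1746 replicate 1 (Mrc1, Siglec1, F13a1 and Ms4a7) and 3 without COMB replicate 1 (Mrc1, F13a1 and Ms4a7).

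The interaction term, (COMB minus anti-PD-1) minus (OAT-1746 minus CTR), asks whether the inhibitor acts differently with the antibody present. Its log2 value was 2.33 for Ms4a7 (SE 0.719, edgeR adjusted p = 0.114), -1.28 for Cd163 (SE 0.419, adjusted p = 0.122) and 0.88 for Pf4 (SE 0.321, adjusted p = 0.140). These 3 genes had an unadjusted p under 0.05, beside 26.2% of all genes, and 0 of the 8 passed the edgeR adjusted threshold, beside 45 genes (0.359%) in all. DESeq2 called Ms4a7 (adjusted p = 0.0153) among 1053 genes. The edgeR count of all genes was 2734 without OAT-1746 replicate 1, with Cd163, Ms4a7 and Siglec1 among them, 424 without COMB replicate 1, 26 without OAT-1746 replicate 2, 35 without anti-PD-1 replicate 1 and 0 without any one of the other 5 libraries. Without OAT-1746 replicate 2 the value was 1.71 for Ms4a7, -1.07 for Cd163 and 0.91 for Pf4, and that of Siglec1 went from 0.20 to -0.46. For Cd163 it was -0.85 without anti-PD-1 replicate 1. The median over the 8 genes was -0.10, and over all genes it was -0.02.

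The test for any difference among the 4 groups asks for each gene whether the group means differ at all. In edgeR 0 of the 8 genes passed at an adjusted p under 0.05, beside 24 genes (0.191%) in all, and DESeq2 called Ms4a7 (adjusted p = 0.0134) and F13a1 (adjusted p = 0.0280) among 2137 genes. At an unadjusted p under 0.05 edgeR found 2 of the 8, F13a1 and Ms4a7, beside 3467 (27.7%) of all genes. Their edgeR adjusted p was 0.131 and 0.141, and without OAT-1746 replicate 1 edgeR called Ms4a7 (adjusted p = 0.0109) and Siglec1 (adjusted p = 0.00926) among 2381 genes. The edgeR count of all genes was 200 without COMB replicate 1, 12 without OAT-1746 replicate 2 and 0 without CTR replicate 1, CTR replicate 2, COMB replicate 2 or COMB replicate 3.

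**Figure D3:**
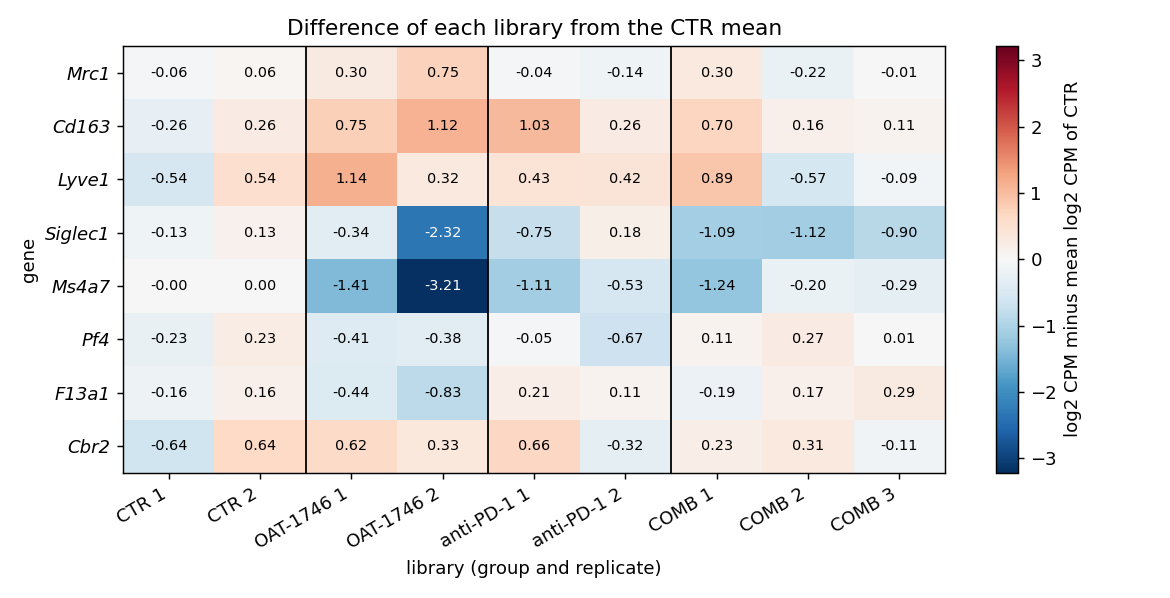
Log2 CPM of each of the 8 genes less its mean in CTR (color), in each of the 9 libraries (columns, by group). OAT-1746 replicate 2 holds the lowest Ms4a7 and Siglec1 values and the highest Mrc1 and Cd163 values.

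The 8 genes did not move as 1 group over the 9 libraries. Of their 28 pairs, 13 had a positive Pearson r of log2 CPM and 15 a negative one, with a median of -0.10, beside a median of -0.0066 and 49.6% positive over the 78594453 pairs of all tested genes. With each group's mean taken off, 17 of the 28 were positive with a median of 0.15, beside -0.0061 over all genes. An exact two-sided permutation test over all 362880 pairings of the libraries, with adjustment over the 28 pairs, gave 7 pairs with an unadjusted p under 0.05 for r and 3 with an adjusted p under 0.05. All 3 were negative. For Spearman's rho, 1 pair had an unadjusted p under 0.05 and 0 passed after adjustment. The permutation takes the libraries as exchangeable and does not account for the groups.

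Mrc1 was high where Ms4a7 was low, with r = -0.89 (exact permutation p = 0.00514, adjusted p = 0.0480) and rho = -0.62 (exact permutation p = 0.0857, adjusted p = 0.422). Without the 2 libraries farthest from the median of Mrc1, OAT-1746 replicate 2 and COMB replicate 1, r was -0.56, so its size rests in part on those libraries, and it was -0.91 within groups. Mrc1 was likewise high where F13a1 was low, with r = -0.88 (exact permutation p = 0.00473, adjusted p = 0.0480) and rho = -0.60 (exact permutation p = 0.0968, adjusted p = 0.422). Without the same 2 libraries that r was -0.67, and within groups it was -0.65. Cd163 and Ms4a7 gave r = -0.84 (exact permutation p = 0.00174, adjusted p = 0.0480) and rho = -0.83 (exact permutation p = 0.00827, adjusted p = 0.231). This r was -0.90 without the 2 libraries farthest in Cd163, OAT-1746 replicate 2 and anti-PD-1 replicate 1, and it stayed between -0.91 and -0.83 when each library was left out in turn.

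Over the 9 libraries 11 of the 13 pairs with a positive r lay within the sets of 4 genes that were higher or lower in OAT-1746 than in CTR. Mrc1, Cd163, Lyve1 and Cbr2, the receptors for glycoproteins, haemoglobin and hyaluronan with the reductase, had a positive r in 6 of 6 pairs with a median of 0.60, and 6 of 6 were positive within groups. Ms4a7, F13a1, Siglec1 and Pf4 had a positive r in 5 of 6 pairs with a median of 0.50, and 4 of 6 were positive within groups. Between these sets 2 of 16 pairs were positive with a median of -0.33, and within groups 7 of 16 with a median of -0.03. Without OAT-1746 replicate 2 the median r was 0.65 in the first set (6 of 6 positive), 0.29 in the second (4 of 6) and -0.24 between them (2 of 16). This division was made after the values were seen, and no test of it was run. Of the 28 pairs, 24 kept their sign when each library was left out in turn, and 22 had the same sign within groups as over all libraries.

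Several positive pairs were weaker without OAT-1746 libraries. F13a1 and Ms4a7 had r = 0.83 (exact permutation p = 0.0103, adjusted p = 0.0724) and rho = 0.58 (exact permutation p = 0.108, adjusted p = 0.422). This r was 0.53 without OAT-1746 replicate 2 and 0.19 without both OAT-1746 libraries, the 2 farthest in F13a1. Ms4a7 and Siglec1 had r = 0.76 (exact permutation p = 0.0242, adjusted p = 0.136) and rho = 0.47 (exact permutation p = 0.213, adjusted p = 0.458), and r was 0.31 without OAT-1746 replicate 2 and 0.46 without both OAT-1746 libraries. Mrc1 and Lyve1 went the other way, from r = 0.50 (rho = 0.60, exact permutation p = 0.167 and 0.0968, adjusted p = 0.335 and 0.422) to 0.80 without OAT-1746 replicate 2.

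Cd163 and Cbr2 had r = 0.69 (exact permutation p = 0.0426, adjusted p = 0.171) and rho = 0.63 (exact permutation p = 0.0760, adjusted p = 0.422), and r was 0.69 without the 2 libraries farthest in Cd163. Pf4 and Cbr2 are a pair in which the groups mattered: r was 0.36 over the 9 libraries (exact permutation p = 0.340, adjusted p = 0.530; rho = 0.22, exact permutation p = 0.581, adjusted p = 0.678) and 0.93 with group means taken off. In CTR replicate 2 both genes were above replicate 1, and in anti-PD-1 replicate 1 both were above replicate 2. For Pf4 and Cbr2 r was 0.39 without the 2 libraries farthest in Pf4, anti-PD-1 replicate 2 and OAT-1746 replicate 1.

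**Figure D4:**
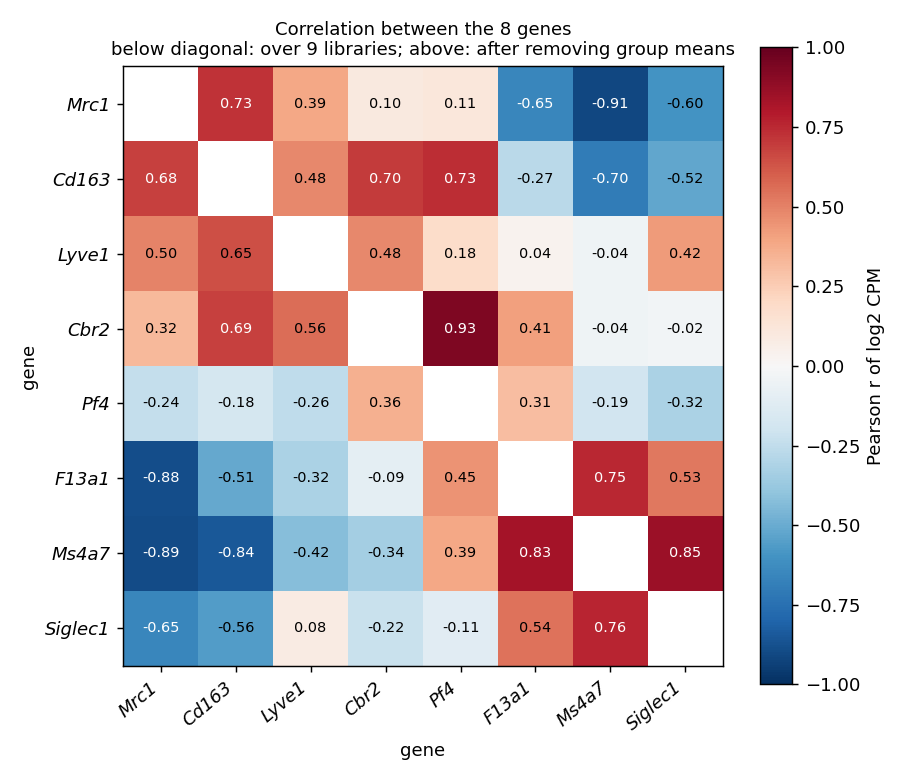
Pearson r of log2 CPM for each of the 28 pairs of the 8 genes (color and number), with the genes on both axes. Values below the diagonal are over the 9 libraries, and values above it are with group means taken off. Below the diagonal Mrc1 with Ms4a7 at -0.89 and Mrc1 with F13a1 at -0.88 are the lowest values, and F13a1 with Ms4a7 at 0.83 is the highest. Above it the lowest is Mrc1 with Ms4a7 at -0.91 and the highest Pf4 with Cbr2 at 0.93.

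Genes of microglia, which pass the same CD11b gate, moved with 4 of the 8 genes and opposite to 3 others. The 12 genes of homeostatic microglia summed to 14967 and 23848 CPM in CTR, 31803 and 39751 in OAT-1746, 22570 and 18336 in anti-PD-1, and 27584, 20549 and 19375 in COMB and none was at 0. They were thus highest in the OAT-1746 libraries and in COMB replicate 1, as Mrc1 was. Over the 9 libraries the median r with the 12 genes, a description without a test, was 0.87 for Mrc1, 0.80 for Cd163, 0.65 for Lyve1 and 0.65 for Cbr2, with 12 of 12 positive for each. It was -0.82 for Ms4a7, -0.74 for F13a1 and -0.58 for Siglec1 with 0 of 12 positive, and -0.15 for Pf4. With OAT-1746 replicate 2 left out these medians were 0.77 for Mrc1, 0.70 for Cd163, 0.84 for Lyve1, 0.76 for Cbr2, -0.69 for Ms4a7, -0.50 for F13a1, -0.14 for Siglec1 and 0.07 for Pf4. In OAT-1746 minus CTR all 12 had a positive difference with a median log2 of 0.95, none of the 12 passed the adjusted edgeR test and all 12 had an unadjusted p under 0.05 beside 32.3% of all genes, and in COMB minus OAT-1746 P2ry12 (-1.07, edgeR adjusted p = 0.0383) and Sall1 (-1.06, adjusted p = 0.0331) fell. In the fit without OAT-1746 replicate 2 the median in OAT-1746 minus CTR was 0.78 with all 12 positive and 8 at an unadjusted p under 0.05 (beside 14.6% of all genes), and P2ry12 (-0.82, adjusted p = 0.223) and Sall1 (-0.90, adjusted p = 0.186) did not pass. The part of the microglia genes in the values of Mrc1, Cd163, Lyve1 and Cbr2 was not tested.

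The 12 genes of infiltrating monocytes and macrophages summed to 3056 and 3727 CPM in CTR, 3659 and 573 in OAT-1746, 4092 and 4531 in anti-PD-1, and 2512, 2566 and 2810 in COMB, with Plac8 the most abundant on average, though not in every library. The sum in OAT-1746 replicate 2 was the lowest of all, and that in replicate 1 was close to CTR. The median r with these 12 genes was 0.77 for Siglec1, 0.72 for Ms4a7 and 0.70 for F13a1 with 12 of 12 positive for each, -0.72 for Mrc1, -0.33 for Cd163, 0.11 for Pf4, 0.08 for Lyve1 and -0.01 for Cbr2. These values rest on OAT-1746 replicate 2, and without it the median was 0.48 for Siglec1 (9 of 12 positive), -0.13 for Ms4a7 (5 of 12), 0.12 for F13a1 (8 of 12), -0.10 for Mrc1 (5 of 12) and 0.29 for Cd163 (7 of 12). Of the 12 genes, S100a4 rose in COMB minus OAT-1746 (4.44, edgeR adjusted p = 0.0205). The fold is taken over a group near 0, since S100a4 stood at 0.116 and 0 CPM in OAT-1746 and 1.19, 1.72 and 1.35 in COMB, and it was 3.53 without OAT-1746 replicate 2 (adjusted p = 0.128) and 7.49 without replicate 1. The part of monocyte genes in the values of Ms4a7, F13a1 and Siglec1 was not tested.

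**Figure D5:**
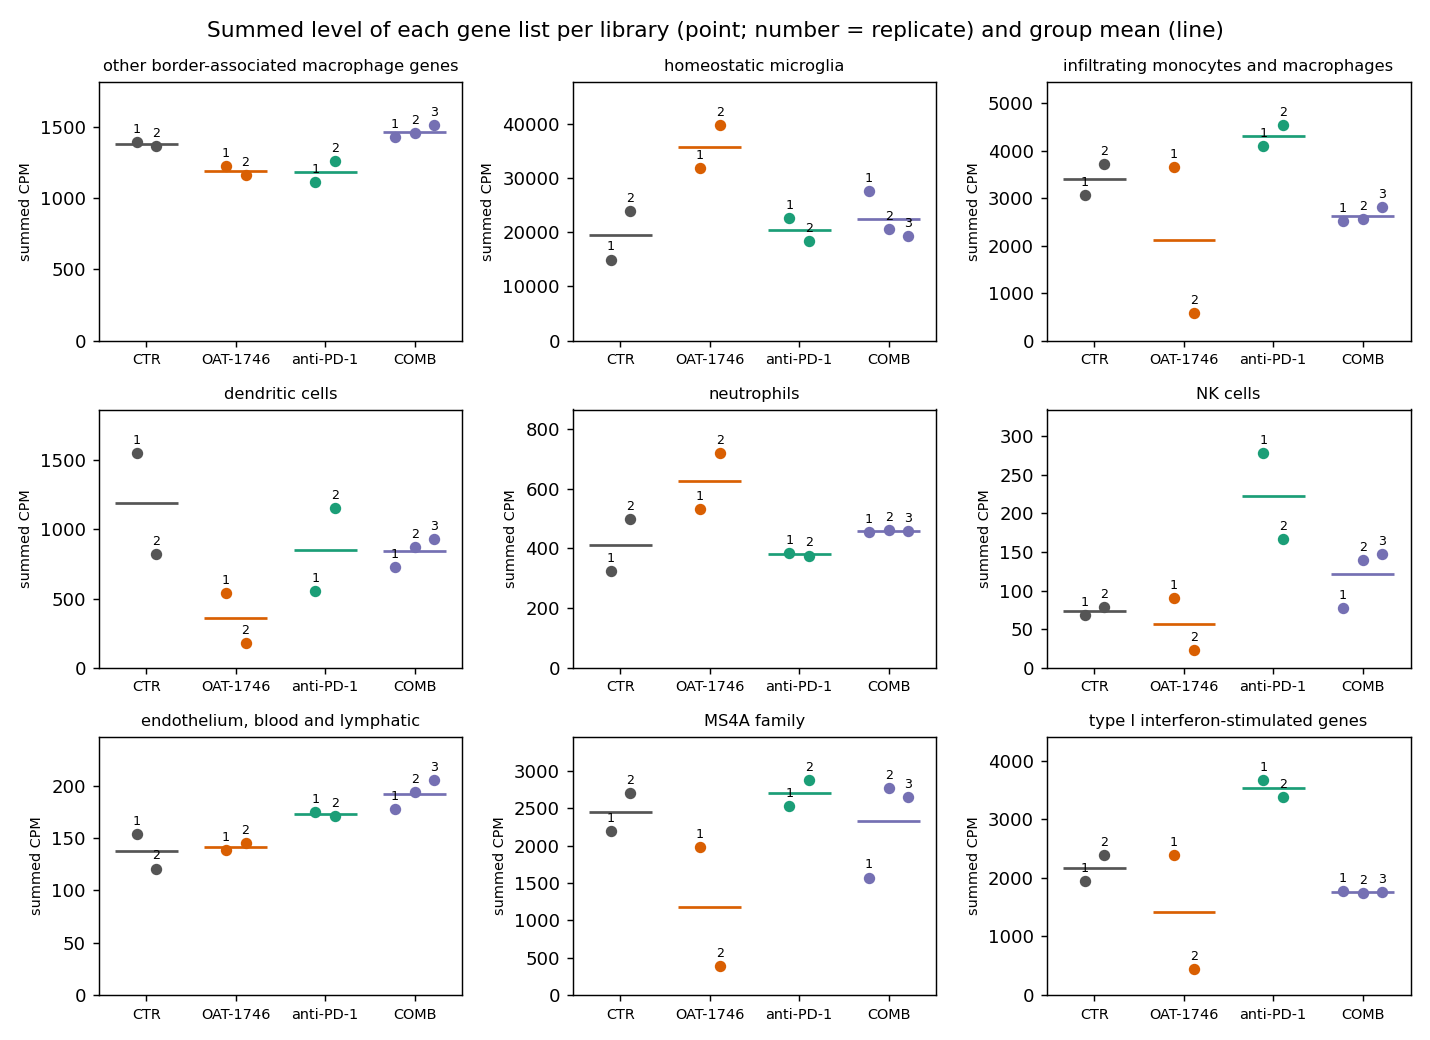
Summed CPM of gene lists (vertical axes) in each of the 9 libraries, by group. The microglia sum is highest in OAT-1746 replicate 2 at 39751 CPM, where the monocyte sum is lowest at 573 CPM.

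Ms4a7 was set beside the other genes of its family. Of 12 other MS4A genes 9 were tested, and the 12 summed to 2191 and 2700 CPM in CTR, 1981 and 383 in OAT-1746, 2536 and 2882 in anti-PD-1, and 1572, 2773 and 2652 in COMB, with Ms4a6c the most abundant on average. The median r of Ms4a7 with the 9 genes was 0.90 with 9 of 9 positive, and the 9 genes among themselves had a median r of 0.88. The first of these values was 0.58 without OAT-1746 replicate 2, with 5 of 9 positive. In OAT-1746 minus CTR 0 of the 9 passed the adjusted edgeR test, 2 had an unadjusted p under 0.05 (beside 32.3% of all genes) and all 9 were lower, with a median log2 of -0.90. Ms4a6c was lower at -1.17 (SE 0.624) and Ms4a6d at -1.08 (SE 0.580). In COMB minus OAT-1746 all 9 were higher, with a median of 0.78, none passed the adjusted edgeR test and 3 had an unadjusted p under 0.05 (beside 37.1% of all genes). These directions were not shared by all 9 once OAT-1746 replicate 2 was left out: 5 of 9 were lower in OAT-1746 than in CTR (median -0.32) and 5 of 9 higher in COMB than in OAT-1746 (median 0.14). One gene, Ms4a4c, is on both the MS4A and the monocyte list.

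Siglec1 was set beside interferon genes. The 12 genes stimulated by type I interferon summed to 1946 and 2389 CPM in CTR, 2391 and 440 in OAT-1746, 3681 and 3392 in anti-PD-1, and 1780, 1746 and 1766 in COMB, with Irf7 the most abundant on average. COMB was below CTR and OAT-1746 replicate 2 was lowest, as for Siglec1, whereas anti-PD-1 was above CTR for the list and overlapped it for Siglec1. The median r of Siglec1 with the list was 0.83 with 12 of 12 positive, beside 0.69 for Ms4a7, 0.66 for F13a1 and -0.72 for Mrc1. These became, without OAT-1746 replicate 2, 0.51 for Siglec1, again with 12 of 12 positive, -0.27 for Ms4a7, 0.02 for F13a1 and -0.12 for Mrc1. None of the 12 genes passed the adjusted edgeR test in any comparison, and 1 had an unadjusted p under 0.05 (in COMB minus OAT-1746, beside 37.1% of all genes). The counts at an unadjusted p moved in the fit without OAT-1746 replicate 2, to 9 higher in anti-PD-1 than in CTR (beside 7.56% of all genes), 5 lower in COMB than in CTR (beside 8.84%), 5 lower in COMB than in OAT-1746 (beside 19.4%) and 9 with a negative interaction (beside 17.2%).

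Cd163 was set beside other genes of haem and iron handling. Those 8 genes, with the ferritin chain Fth1 the most abundant, summed to 12360 and 12396 CPM in CTR, 8709 and 3665 in OAT-1746, 9878 and 12102 in anti-PD-1, and 9656, 16413 and 15323 in COMB. In COMB minus OAT-1746 the haem transporter Slc48a1 (0.92, edgeR adjusted p = 0.0274), the ferritin chain Ftl1 (1.27, adjusted p = 0.0444) and the haem oxygenase Hmox1 (1.26, adjusted p = 0.0435) rose. Their values were 0.77, 0.75 and 1.13 without OAT-1746 replicate 2, where none passed, and that of Ftl1 was 2.10 without replicate 1. The median r with the 8 genes was -0.59 for Cd163 and -0.81 for Mrc1, and it was 0.84 for F13a1 and 0.81 for Ms4a7. The same medians without OAT-1746 replicate 2 were -0.41 for Cd163, -0.54 for Mrc1, 0.60 for F13a1 and 0.63 for Ms4a7. For Lyve1, 4 of 9 genes of hyaluronan synthesis, turnover and receptors were tested. Their median r with Lyve1 was -0.14 (-0.22 without OAT-1746 replicate 2), the sum ran from 65.2 CPM (OAT-1746 replicate 2) to 337 CPM (anti-PD-1 replicate 2) with the receptor Cd44 the most abundant, and 0 of the 4 passed the adjusted edgeR test, with 1 at an unadjusted p under 0.05 in OAT-1746 minus CTR (beside 32.3% of all genes) and 1 in COMB minus OAT-1746 (beside 37.1%). For Mrc1, 2 of 3 other genes of the mannose receptor family were tested, and Mrc2, the more abundant, stood at 40.1 and 56.4 CPM in CTR, 69.3 and 76.4 in OAT-1746, 57.6 and 50.7 in anti-PD-1, and 59.1, 30.4 and 38.4 in COMB. Neither of the 2 passed the adjusted edgeR test, and 1 had an unadjusted p under 0.05 in COMB minus OAT-1746 (beside 37.1% of all genes) and for the interaction (beside 26.2%).

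The 18 other tested genes of border-associated macrophages had a median r among themselves of 0.25, with 99 of 153 pairs positive, beside -0.0066 and 49.6% positive over the pairs of all tested genes. Their median r was 0.51 with Cbr2, 0.48 with Mrc1, 0.33 with Cd163, 0.30 with Lyve1 and 0.30 with Pf4, and it was -0.18 with F13a1, -0.33 with Ms4a7 and -0.33 with Siglec1. In the 8 libraries other than OAT-1746 replicate 2 it was 0.50 with Cbr2, 0.52 with Mrc1, 0.13 with Cd163, 0.35 with Lyve1, 0.38 with Pf4, -0.0036 with F13a1, -0.14 with Ms4a7 and -0.34 with Siglec1. In OAT-1746 minus CTR 12 of the 18 were positive with a median log2 of 0.19, 0 passed the adjusted edgeR test and 3 had an unadjusted p under 0.05 (beside 32.3% of all genes), all 3 lower, and without OAT-1746 replicate 2 there were 10 positive, a median of 0.11 and 1 at an unadjusted p (beside 14.6%). Cd38, an enzyme that breaks down NAD, rose in COMB minus OAT-1746 (1.96, SE 0.495, edgeR adjusted p = 0.0368) and was the 1 gene of the 18 that passed in any comparison. The value of Cd38 was 1.49 without OAT-1746 replicate 2 (adjusted p = 0.203). Stab1 stood at 444 and 468 CPM in CTR, 498 and 496 in OAT-1746, 400 and 422 in anti-PD-1, and 570, 458 and 515 in COMB.

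Genes of other cells that the gate could hold, or that could remain after it, had lower sums than the microglia genes in every library. The sums ran from 178 to 1555 CPM for 10 dendritic cell genes (Itgax most abundant on average), from 323 to 722 for 10 neutrophil genes (Csf3r), from 22.7 to 279 for 9 NK cell genes (Klrk1 on average), from 121 to 206 for 10 endothelial genes (Pecam1 on average) and from 12.8 to 36.2 for 8 genes of fibroblasts and mural cells (Rgs5), the last 2 being cells that the CD11b gate should remove. The median r of Lyve1 with the 10 endothelial genes, which include the lymphatic genes Prox1, Flt4 and Pdpn, was -0.12 with 3 of 10 positive, with or without OAT-1746 replicate 2. This median pools blood and lymphatic genes, and the lymphatic genes were not tested apart. Prox1 and Lyve1 were both lowest in COMB replicate 2 (3.63 and 4.49 CPM), and both were higher in each OAT-1746 library. Pdpn went the other way, at 69.2 CPM in COMB replicate 2 and 11.6 and 1.03 CPM in OAT-1746. F13a1 had a median r of 0.74 with the 9 NK cell genes and 0.56 with the 10 dendritic cell genes, and Cd163 and Cbr2 had 10 of 10 positive with the neutrophil genes at medians of 0.40 and 0.44. Leaving out OAT-1746 replicate 2 gave medians of 0.54 and 0.16 for F13a1 with the NK and dendritic genes and 0.25 and 0.47 for Cd163 and Cbr2 with the neutrophil genes.

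In COMB minus OAT-1746 Pdpn (3.09) and the collagen gene Col3a1 (2.25) rose and Prox1 (-1.25) and Csf3r (-0.74) fell, each at an edgeR adjusted p under 0.05. Pdpn stood at 11.6 and 1.03 CPM in OAT-1746, and its value was 2.22 without OAT-1746 replicate 2 and 5.70 without replicate 1. Col3a1 stood near the floor, at 0.175 and 0.286 CPM in OAT-1746 and 1.11, 1.06 and 1.21 in COMB. None of these 4 passed without OAT-1746 replicate 2, where Col3a1 was 2.65, Prox1 -1.14 and Csf3r -0.56. None of the 10 dendritic, 9 NK or 3 platelet genes tested passed the adjusted edgeR test in any comparison. At an unadjusted p under 0.05, in OAT-1746 minus CTR 5 of 10 dendritic genes were lower and 4 of 10 neutrophil, 2 of 10 endothelial and 1 of 3 platelet genes higher (beside 32.3% of all genes), 7 of 9 NK genes were higher in anti-PD-1 than in CTR (beside 5.12%), 4 of 9 NK, 3 of 10 neutrophil and 2 of 10 endothelial genes were higher in COMB than in CTR (beside 6.58%), and 2 of 10 dendritic and 3 of 9 NK genes were higher in COMB than in OAT-1746 (beside 37.1%). In the fit without OAT-1746 replicate 2 OAT-1746 minus CTR was negative for 2 dendritic genes and positive for 1 dendritic, 0 neutrophil, 1 endothelial, 1 platelet and 2 NK genes at that threshold (beside 14.6%), and COMB minus OAT-1746 was positive for 0 dendritic and 0 NK genes at that threshold (beside 19.4%). What part these cells have in the values of the 8 genes was not tested.

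Genes of the pathways that act on these receptors were read in the same way. Of 12 transcription and growth factor genes of macrophages, with Csf1r and Irf8 the most abundant on average, Cebpb (1.72) rose and Klf4 (-2.53) and Runx1 (-0.72) fell in COMB minus OAT-1746, each at an edgeR adjusted p under 0.05. They were 1.33, -1.51 and -0.54 without OAT-1746 replicate 2, and none of the 3 then passed. Klf4 stood at 67.1 and 203 CPM in the OAT-1746 pair. Of 10 genes of the response to IL-4, IL-10 and glucocorticoids, the last known to induce Cd163 and the first Mrc1, Tsc22d3 (-0.97), Per1 (-1.82), Il10ra (-0.58) and Nr3c1 (-0.64) fell in the same comparison, each at an edgeR adjusted p under 0.05, and were -0.80, -1.49, -0.46 and -0.43 without OAT-1746 replicate 2, where none of the 4 passed. The median r of Mrc1 with the 10 genes was 0.54 and that of Cd163 was 0.32, and without OAT-1746 replicate 2 they were 0.15 and -0.03.

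Over all 16 lists 19 of the 146 tested genes passed in COMB minus OAT-1746, beside 1979 (15.8%) of all 12538 genes, and these calls depended on single libraries as that of F13a1 did. All 19 kept their sign whichever library was left out. The number still called in edgeR was 0 without OAT-1746 replicate 2, COMB replicate 2 or COMB replicate 3, 8 and 10 without CTR replicate 1 or 2, 9 without either anti-PD-1 library, 18 without OAT-1746 replicate 1 and 19 without COMB replicate 1.

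The genes most like the 8 as a set were found by the correlation of log2 CPM with the mean z-score of the 8 over the 9 libraries, among 9410 genes with at least 5 CPM on average. They were Polr2e (r = 0.93), Pcyox1l (0.90), Sdhaf1 (0.89), Ccl9 (0.88), Arl2bp (0.86), Psat1 (0.85), Kank3 (0.83), Syngr2 (0.83), Rnf128 (0.82) and Polh (0.82), and among the least alike were Zbtb44 (-0.92), Tdrd3 (-0.92), Kat14 (-0.91) and Ccdc82 (-0.87). The mean z-score itself was lowest in CTR replicate 1 (-0.54) and highest in CTR replicate 2 (0.57), with every other library between them. These genes were picked for their r out of 9410, so the r is a description with n = 9 and no p is given.

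Taken singly, the closest match of each gene except Lyve1 had an r at or above that of the set (0.93). These matches too were picked for their r out of 9410 genes, and their r without OAT-1746 replicate 2 is not given. The 3 genes with the highest r were Dag1 (0.97), Heatr5a (0.97) and Cltc (0.97) for Mrc1, Il1rl1 (0.98), Gna11 (0.97) and Cds1 (0.97) for Cd163, and Colec12 (0.89), Ppp6r2 (0.87) and Postn (0.86) for Lyve1. Colec12, a scavenger receptor, is also on the list of other genes of border-associated macrophages, and Cltc encodes the clathrin heavy chain of the coated pits through which the mannose receptor is taken up. For Siglec1 they were Pde7b (0.99), Lgals3bp (0.98) and Trim25 (0.97), and for Ms4a7 Pno1 (0.996), Racgap1 (0.995) and Trmt1 (0.995). For Pf4 they were Hgsnat (0.93), Dnajc30 (0.93) and Prcp (0.92), for F13a1 Eif2b1 (0.99), Rabepk (0.98) and Ube2s (0.98), and for Cbr2 Zfpl1 (0.96), Srrd (0.94) and Laptm4b (0.92). Pno1, the gene most like Ms4a7, stood at 56.3 and 52.5 CPM in CTR, 34.2 and 19.3 in OAT-1746, 38.9 and 48.7 in anti-PD-1, and 37.3, 54.5 and 51.0 in COMB.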

How the data were processed

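Trimming (Trimmomatic), mapping to mm10 (STAR), duplicate marking (Picard) and counting per gene (HTSeq) were done by the authors, and the deposited raw count table was used as given. Protein-coding genes of GENCODE M21 were filtered with filterByExpr at a minimum count of 10 in edgeR 4.0.16 (R 4.3.3), scaled by TMM and fitted with 1 mean per group. Quasi-likelihood tests were adjusted by Benjamini-Hochberg over 12538 genes. DESeq2 1.42.0, other scalings, other filters, all gene types, robust estimation, a block for replicate number and leaving out each library were tried as alternatives. Log2 CPM used a prior count of 2, and 0.5 was tried. Exact permutations used scipy 1.17.1, and figures matplotlib 3.10.9. The code was tested on simulated data. The members and lists were chosen with earlier results of these data known. Named genes are the 8 members, list genes called in any comparison (at most 4 by the smallest p for any difference), the 2 most abundant genes of each list, and the genes most alike by r. Some genes under this rule are not reported here. Genes outside it that are named were chosen after their values were seen.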

Additional observations from a re-analysis of the deposited data

Results flagged for a closer look

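One result among the named genes met a rule for a closer look, a difference between the effects of OAT-1746 with and without the antibody. Tsc22d3, which encodes the glucocorticoid-induced leucine zipper, had an interaction of -1.68 in log2 (SE 0.252, edgeR adjusted p = 0.0401). Its level was 110 and 119 CPM in CTR, 292 and 356 in OAT-1746, 168 and 207 in anti-PD-1, and 144, 181 and 172 in COMB. COMB minus OAT-1746 was -0.97. The call held in edgeR without OAT-1746 replicate 1 (adjusted p = 0.00480) and without COMB replicate 1 (0.0395). It was lost, with the sign kept, without OAT-1746 replicate 2 (adjusted p = 0.0555), anti-PD-1 replicate 1 (0.0513), anti-PD-1 replicate 2 (0.186), CTR replicate 1 (0.218), CTR replicate 2 (0.168), COMB replicate 2 (0.115) or COMB replicate 3 (0.183). The cause was not tested.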

How the results depend on the processing

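With 2 or 3 libraries a group, the counts of called genes depended on single libraries, apart from those in anti-PD-1 minus CTR and COMB minus CTR, which stayed at 0 in edgeR whichever library was left out, and in fits without 1 library of a pair the lone library is assumed to vary like the others. Over the alternatives run, log2 values of the 8 genes kept their direction and their side of the threshold in 631 of the recomputed values, 19 passed only under the alternative, 8 lost the call and 22 changed sign, mostly values near 0 in comparisons with CTR. The cause of these changes was not tested.

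DESeq2 called 1972 genes in OAT-1746 minus CTR (edgeR 0), 14 in anti-PD-1 minus CTR (0), 35 in COMB minus CTR (0), 3062 in COMB minus OAT-1746 (1979), 1053 for the interaction (45) and 2137 for any difference (24). With no filter on low counts the counts were 587, 2 (COMB minus CTR), 146 (interaction) and 361 (any difference). For the interaction, scaling by library size only gave 24, with a median over all genes of -0.11, and all gene types gave 18. Leaving out 1 library gave 0 to 3617 genes in OAT-1746 minus CTR, 5 to 4033 in COMB minus OAT-1746, 0 to 2734 for the interaction and 0 to 2381 for any difference.

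The replicate numbers do not pair the libraries: deviations from the group means of libraries with the same number correlated between -0.349 and 0.0999. With replicate number as a block, 2 genes were called in COMB minus OAT-1746, 0 for the interaction and 0 for any difference, 0 of the 19 list genes called in COMB minus OAT-1746 stayed called, all 19 kept their sign, F13a1 in COMB minus OAT-1746 was 0.62 (edgeR adjusted p = 0.244) and in COMB minus CTR -0.0065.

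With no filter on low counts Siglec1 in COMB minus OAT-1746 was 0.00084. Leaving out each library gave these lowest and highest log2 values where the sign changed. In OAT-1746 minus CTR, Cbr2 ran from -0.15 to 1.12. In anti-PD-1 minus CTR, Lyve1 ran from -0.12 to 0.98, F13a1 from -3.5e-06 to 0.32, Cbr2 from -0.45 to 0.89 and Siglec1 from -0.76 to 0.18. In COMB minus CTR, Mrc1 ran from -0.13 to 0.15, Lyve1 from -0.44 to 0.76, Pf4 from -0.070 to 0.36, F13a1 from -0.032 to 0.26 and Cbr2 from -0.47 to 0.80. In COMB minus OAT-1746 Siglec1 ran from -0.68 to 1.29, and for the interaction Cbr2 ran from -1.22 to 0.13 and Siglec1 from -0.46 to 1.51.

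The median r over the 28 pairs was -0.10, and it was -0.0183 with library size only, -0.0333 for Spearman's rho, 0.15 with group means taken off and between -0.17 and 0.0165 with each library left out.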
